A study of Mus musculus with 8 samples.

Results

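V(D)J recombination is the cutting and joining of gene segments by which lymphocyte precursors assemble antigen receptor genes. RAG1 and RAG2 form the recombinase that cuts DNA beside the segments, and terminal deoxynucleotidyl transferase, made from Dntt, adds untemplated nucleotides to the cut ends. The ends are then joined by the general end-joining pathway. In that pathway Ku70 and Ku80 (from Xrcc6 and Xrcc5) hold the ends, the DNA-dependent kinase catalytic subunit (Prkdc) and the nuclease Artemis (Dclre1c) open hairpins, and DNA ligase IV (Lig4) seals the break with XRCC4 and XLF (Xrcc4 and Nhej1). In pro-B cells the pathway is known for assembling the immunoglobulin heavy chain gene.

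These 10 genes were chosen by symbol, by their role, from 38918 gene rows. All 10 had a row. They were read in poly(A) RNA of BMiFLT3 (15-3) cells, a line of pro-B cells from a mouse B-cell precursor leukaemia. Cells had been infected with a retrovirus for the zinc-finger transcription factor Klf2, and control cells with a retrovirus for blue fluorescent protein (BFP), and the design asks which genes Klf2 regulates. Column names of both groups carry BFP, so BFP may be on both constructs. Each construct has 4 deposited samples, which are sequencing lanes 1 to 4 and differed by about sampling noise, so each construct counts as 1 sample (n = 1).

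The Klf2 library held 30835450 exon reads and the BFP library 30133978. With 1 library per construct there is no replicate check of any difference, no test and no p-value. Intervals are exact 95% intervals of the ratio of reads, Klf2 over BFP, and cover counting error only. Library kit, culture and construct cannot be told apart, since the labels name 2 kits and do not tie either of them to a library. CPM is reads per 1000000 exon reads after TMM scaling, and a gene counted as measured with at least 1 CPM in either library. The Klf2 gene itself was at 113 CPM in the Klf2 library and 10.1 CPM in the BFP library.

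The cells carried the RNA of most pro-B markers but not of all. Of 14 pro-B markers 12 were measured, with a summed level of 4573 CPM in the Klf2 library and 4101 CPM in the BFP library. They included Pax5 (161 CPM in Klf2, 185 CPM in BFP), Ebf1 (413 CPM in Klf2, 358 CPM in BFP) and the surrogate light chain genes Vpreb1 (727 CPM in Klf2, 488 CPM in BFP) and Igll1 (873 CPM in Klf2, 611 CPM in BFP). Kit, the stem cell factor receptor of early progenitors, had 1 read in the Klf2 library and 0 in the BFP library, and Cd34 had 0 in the Klf2 library and 2 in the BFP library. Il2ra, also on the pro-B list, was at 26.9 CPM in the Klf2 library and 39.6 CPM in the BFP library. The name pro-B is that of the column names, and whether the cells are at that stage or a later one was not tested. Of 7 T-cell markers only the kinase gene Lck was measured, at 27.1 CPM in the Klf2 library and 12.3 CPM in the BFP library, while Cd3e, Cd4, Cd8a and Ptcra had 0 reads in both. Of 7 myeloid markers only Csf1r was measured (2.34 CPM in Klf2, 3.76 CPM in BFP), and the list summed to 3.51 CPM in the Klf2 library and 4.76 CPM in the BFP library. No erythroid, stromal or NK-cell marker reached 1 CPM, and those lists summed to 0.0335, 0.0335 and 0.134 CPM in the Klf2 library and 0.161, 0.129 and 0.161 CPM in the BFP library. In bulk RNA, fewer cells of a type and less RNA per cell cannot be told apart.

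The promoter regions of the genes on which the results turn are given here, taken from RefSeq on build GRCm38.p6 (mm10 coordinates) and reading 5′ to 3′ on the gene's own strand, from 250 bases before the transcription start to 50 bases after it. Rag1, Rag2 and Dntt are shown as the genes with almost no reads, and Lig4 as the measured member that stood furthest apart between the libraries. Capitals mark CACCC or its reverse complement, the core of sites bound by Krüppel-like factors.
Rag1, chr2:101649483-101649782, minus strand: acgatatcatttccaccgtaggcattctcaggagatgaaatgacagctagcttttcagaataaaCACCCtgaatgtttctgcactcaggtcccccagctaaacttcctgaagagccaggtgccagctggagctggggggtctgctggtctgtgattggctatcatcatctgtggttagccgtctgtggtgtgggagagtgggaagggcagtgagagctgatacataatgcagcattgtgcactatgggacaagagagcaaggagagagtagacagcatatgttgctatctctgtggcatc
Rag2, chr2:101624462-101624761, plus strand: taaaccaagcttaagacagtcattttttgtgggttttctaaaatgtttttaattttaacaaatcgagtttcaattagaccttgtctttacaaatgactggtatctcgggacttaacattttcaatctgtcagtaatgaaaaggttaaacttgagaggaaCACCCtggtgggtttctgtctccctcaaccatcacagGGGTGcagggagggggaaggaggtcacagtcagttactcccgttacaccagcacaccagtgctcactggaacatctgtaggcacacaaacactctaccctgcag
Dntt, chr19:41029025-41029324, plus strand: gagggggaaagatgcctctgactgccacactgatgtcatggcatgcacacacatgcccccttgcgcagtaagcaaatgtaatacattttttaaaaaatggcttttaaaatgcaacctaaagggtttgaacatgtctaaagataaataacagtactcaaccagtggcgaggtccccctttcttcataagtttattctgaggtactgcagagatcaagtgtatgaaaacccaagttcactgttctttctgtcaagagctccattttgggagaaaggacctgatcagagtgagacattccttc
Lig4, chr8:9977631-9977930, minus strand: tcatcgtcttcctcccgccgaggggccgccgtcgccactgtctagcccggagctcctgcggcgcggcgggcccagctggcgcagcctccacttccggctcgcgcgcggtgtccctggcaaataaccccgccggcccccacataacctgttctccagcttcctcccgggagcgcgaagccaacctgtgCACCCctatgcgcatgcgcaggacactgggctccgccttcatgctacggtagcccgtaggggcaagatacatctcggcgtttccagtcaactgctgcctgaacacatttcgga

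The CACCC core began 186 bases before the start in Rag1, 91 and 54 bases before it in Rag2 and 63 bases before it in Lig4, and these letters were not in the Dntt window. On either strand the core is in 57.5% of all 32851 windows of that length, so a match is common. A window was found for all members but Prkdc, and among those 9 genes only Nhej1 held the longer Krüppel-like site CACACCC, which itself contains the core and is in 7.95% of all windows. The FOXO site TGTTTAC, in 3.65% of all windows, was in none of the windows of these 9 genes. GGGCGG, the GC box, in 35.7% of all windows, was in the windows of Xrcc4, Xrcc6, Dclre1c and Nhej1 and in the window of a second Lig4 start, and not in those of Rag1, Rag2, Dntt and Xrcc5. The Rag1, Rag2 and Dntt windows held 3, 3 and 2 CG dinucleotides, and the Lig4 window 30, where the median of all windows was 7. Xrcc4 held 31, Xrcc6 30, Dclre1c 12, Nhej1 10, Xrcc5 9 and the second Lig4 start 29. A count near 30 was thus not particular to Lig4. The CACCC core was also in the windows of Xrcc4, Xrcc5, Xrcc6 and Nhej1, and not in those of Dclre1c and the second Lig4 start.

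The recombinase and the transferase were almost without RNA in either library. Rag1 (chromosome 2, 101638282 to 101649501, 2 exons) had 1 read in the Klf2 library, in lane 3, and 1 in the BFP library, also in lane 3. None of these reads was uniquely placed. Rag1 was thus at 0.0335 CPM in Klf2 and 0.0322 CPM in BFP. The limit that 0 reads would allow was 0.0973 CPM in the Klf2 library and 0.0996 CPM in the BFP library, from 3 reads and before TMM scaling. Any gene with 1 read lies under that limit, so it tells nothing more about Rag1. Rag2 (chromosome 2, 101624718 to 101632529, 5 exons) had 1, 2, 1 and 0 reads in lanes 1 to 4 of the Klf2 library, against 0, 1, 3 and 3 in the BFP library. The lanes overlapped, and the ratio of 0.595 had an interval of 0.128 to 2.34. None of the 4 Rag2 reads of the Klf2 library was uniquely placed, while 4 of 7 in the BFP library were.

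Dntt (chromosome 19, 41029275 to 41059523, 12 exons) had 2, 4, 2 and 1 reads in lanes 1 to 4 of the Klf2 library, against 0, 0, 1 and 0 in the BFP library. The lowest Klf2 lane and the highest BFP lane had 1 read each, so the lanes met, and both libraries were far under the floor of 1 CPM, at 0.301 CPM in Klf2 and 0.0322 CPM in BFP. All of these reads were uniquely placed, and 5 of the 9 in the Klf2 library crossed exon junctions. The ratio of 9.37 had an interval of 1.30 to 410. Reads of the Dntt row outside exons went the other way, with 2 in the Klf2 library and 9 in the BFP library, so the row as a whole had 11 reads in the Klf2 library and 10 in the BFP library.

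Traf6, Blnk and Tm9sf3, which lie beside these loci, had far more RNA. Traf6, a signalling ubiquitin ligase and the next measured gene after Rag1, starts 28928 bases beyond it and was at 77.7 CPM in the Klf2 library and 111 CPM in the BFP library. The Rag1 and Rag2 rows both overlap the row of B230118H07Rik, which had 1 exon read in the Klf2 library and 0 in the BFP library. The nearest measured row on the other side, Gm10800, lay 2957417 bases from Rag2, at 3.71 CPM in Klf2 and 4.21 CPM in BFP. On the side of Dntt before its start, Blnk, an adaptor of B-cell receptor signalling, was at 114 CPM in the Klf2 library and 153 CPM in the BFP library. On the far side, Tm9sf3 was at 243 CPM in Klf2 and 214 CPM in BFP.

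All 7 end-joining genes were measured. Lig4 alone passed the rule for a difference, at least 2-fold either way with an interval that excludes 1. Over all 10850 measured genes 8.12% passed this rule, with 2.45% at least 2-fold higher in the Klf2 library and 5.67% at least 2-fold lower. Intervals of 3 of the 7, Lig4, Xrcc6 and Prkdc, lay above 1 and those of 2, Dclre1c and Nhej1, below 1, while Xrcc4 and Xrcc5 had intervals that held 1. Among all measured genes 37.1% lay above and 37.3% below, so these shares are of the background's size. The median log2(CPM + 1) difference was 0.04 over the 10 genes and 0.07 over the 7 measured, against -0.01 over all measured genes.

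**Figure D1:**
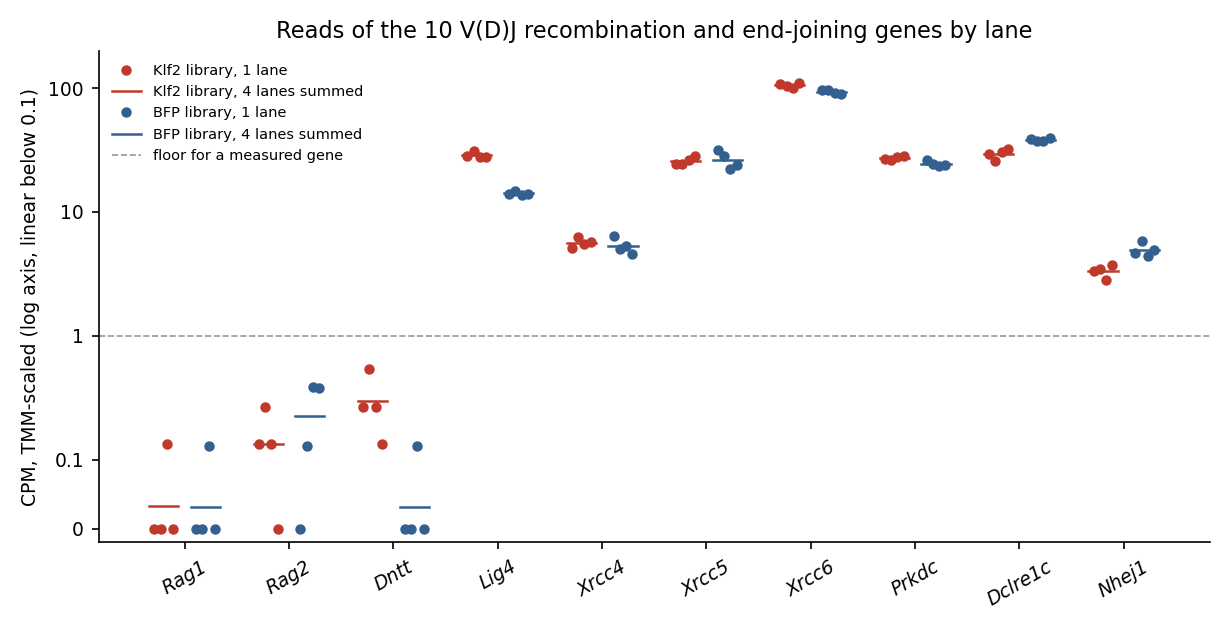
CPM of the 10 genes (vertical axis, logarithmic above 0.1 and linear below) in each lane (points) and in the summed lanes (bars), with the Klf2 library in red and the BFP library in blue. Rag1, Rag2 and Dntt lie under the floor of 1 CPM in every lane, the other 7 genes above it in every lane, and the Lig4 lanes stand apart at 27.6 to 31.1 CPM in the Klf2 library and 13.7 to 14.9 CPM in the BFP library.

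Lig4, the ligase of the final joining step (chromosome 8, 9970020 to 9977686, minus strand, 4 exons), had 211, 232, 206 and 207 reads in lanes 1 to 4 of the Klf2 library, against 108, 116, 106 and 109 in the BFP library. The 2 sets of lanes were far apart and tight within each library. Here and for the genes below, the lanes of a construct count as 1 sample, so lanes apart add nothing beyond the counting interval. The share of all genes with lanes apart is not given here. The level was 28.6 CPM in the Klf2 library and 14.1 CPM in the BFP library, a ratio of 2.03 (1.81 to 2.28), and every read was uniquely placed. This ratio sits at the 2-fold limit: it was 1.91 with scaling by total exon reads and 1.94 without lane 2 of the Klf2 library, and under the rule in both. The interval stayed above 1 in both cases, with lower ends of 1.70 and 1.72.

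Lig4 shares its start region with Abhd13, a gene of the other strand whose row begins 21 bases beyond the Lig4 row, so that the printed Lig4 window holds both starts. Abhd13 was at 44.4 CPM in the Klf2 library and 44.9 CPM in the BFP library, a ratio of 0.989 (0.917 to 1.07). The Lig4 ratio was thus 2.05 times the Abhd13 ratio (1.78 to 2.36), a comparison that does not depend on a scaling with 1 factor per library. On the far side of Lig4 the nearest measured gene was Arglu1, 1279483 bases away, at 150 CPM in Klf2 and 140 CPM in BFP.

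Xrcc4, the scaffold that stabilises the ligase (chromosome 13, 89774027 to 90089608, minus strand), had 38, 47, 41 and 43 reads in the Klf2 lanes, against 50, 39, 41 and 36 in the BFP lanes. The lanes overlapped, and the ratio was 1.06 (0.850 to 1.32). Per kilobase of exon, Lig4 RNA stood at 5.02 times Xrcc4 RNA in the Klf2 library (4.25 to 5.95) and 2.62 times in the BFP library (2.19 to 3.15). The ratio of these ratios was 1.91 (1.49 to 2.46), so the 2 partners differed unequally between the libraries beyond counting error. With Xrcc4 at 1.06, this value largely restates the Lig4 ratio, and the share of gene pairs that differ in this way was not computed. About 1 in 4 Xrcc4 reads was not uniquely placed in the Klf2 library (75.7% unique, against 80.1% in the BFP library).

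Nhej1, which encodes XLF, the third factor of the ligation complex (chromosome 1, 74967139 to 75046639, minus strand), had 25, 26, 21 and 28 reads in the Klf2 lanes, against 36, 45, 34 and 39 in the BFP lanes. Every Klf2 lane was below every BFP lane once scaled, at 2.82 to 3.73 CPM in Klf2 against 4.38 to 5.80 CPM in BFP. The ratio was 0.676 (0.520 to 0.875), all on uniquely placed reads. Scaled to the median of genes of like level it was 0.779 (0.599 to 1.01), an interval that holds 1. Reads of the Nhej1 row outside exons stood on the other side of 1, with 148 in the Klf2 library against 109 in the BFP library, a ratio of 1.41 (1.10 to 1.83). They made up 59.7% of the row's reads in the Klf2 library (53.3 to 65.8%) and 41.4% in the BFP library (35.4 to 47.7%). An exon interval below 1 with an interval outside exons above 1 was found in 3.70% of the 9128 genes measured on both kinds of read. The deposited row of Nhej1 ends at 75046639, and the GENCODE annotation carries the gene on to 75125200, where the RefSeq window lies, so the row does not cover the whole gene.

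The Ku genes, which encode the ring that first binds a broken end, had ratios of 0.977 and 1.12. Xrcc5 (Ku80, chromosome 1, 72307421 to 72394952) had 183, 181, 196 and 213 reads in the Klf2 lanes, against 243, 220, 172 and 188 in the BFP lanes. The BFP lanes spread more widely than the Klf2 lanes and enclosed them, and the ratio was 0.977 (0.885 to 1.08). That interval comes from the summed reads and does not take in the spread of the BFP lanes, so it may be too narrow. Xrcc6 (Ku70, chromosome 15, 81987835 to 82040085) had 803, 770, 741 and 824 reads in the Klf2 lanes, against 750, 747, 706 and 701 in the BFP lanes. Scaled, the Xrcc6 lanes did not overlap, at 99.5 to 110 CPM in the Klf2 library and 89.5 to 96.8 CPM in the BFP library, with a ratio of 1.12 (1.07 to 1.18).

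With total exon reads as the scale the Xrcc6 ratio was 1.06. Only 42.3% of Xrcc6 reads in the Klf2 library and 41.2% in the BFP library were uniquely placed, and on those the ratio was 1.16 (1.07 to 1.25). The row also overlaps Desi1, a gene of the other strand, and the counting is not known to use strand, so reads of the pair may be mixed. Per kilobase of exon, Xrcc5 stood at 0.432 of Xrcc6 in the Klf2 library (0.398 to 0.467) and at 0.496 in the BFP library (0.459 to 0.537). The latter interval also leaves out the spread of the Xrcc5 lanes.

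Prkdc and Dclre1c, the kinase subunit and the hairpin-opening nuclease it activates, lay on different sides of 1. Prkdc (chromosome 16, 15637866 to 15842235, 89 exons) had 200, 197, 206 and 213 reads in the Klf2 lanes, against 202, 190, 183 and 187 in the BFP lanes. Its lanes were at 26.4 to 28.4 CPM in the Klf2 library and 23.6 to 26.1 CPM in the BFP library, just apart, with a ratio of 1.11 (1.01 to 1.23). The interval held 1 when any of the Klf2 lanes was left out and with scaling by total exon reads, where the ratio was 1.05. Dclre1c (chromosome 2, 3424131 to 3464130, 32 exons) had 218, 193, 225 and 242 reads in the Klf2 lanes, against 299, 289, 290 and 311 in the BFP lanes. All Klf2 lanes were below all BFP lanes, and the ratio was 0.768 (0.703 to 0.839) on all reads and 0.767 on uniquely placed reads. The Dclre1c ratio was 0.690 of the Prkdc ratio (0.603 to 0.788).

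Reads outside exons gave a second readout of these genes. For Prkdc they numbered 578 in the Klf2 library and 414 in the BFP library, a ratio of 1.45 (1.28 to 1.65), and their share of the row's reads was 41.5% in the Klf2 library (38.9 to 44.1%) and 35.2% in the BFP library (32.5 to 38.0%). For Dclre1c the ratio outside exons was 0.893, nearer to 1 than on exons. The end of the Dclre1c row overlaps Suv39h2, a histone methyltransferase gene of the other strand, which was at 25.1 CPM in the Klf2 library and 16.0 CPM in the BFP library. The part of Suv39h2 reads in the Dclre1c value was not tested. Xrcc5 stood at 0.786 outside exons (0.662 to 0.933), Xrcc6 at 1.07 (1.02 to 1.13) and Xrcc4 at 1.21 (1.03 to 1.41). The Xrcc4 row overlaps Tmem167, a gene of the other strand with a ratio of 1.21, and the part of Tmem167 reads in the Xrcc4 values was not tested. The interval outside exons thus lay above 1 for Prkdc, Nhej1, Xrcc6 and Xrcc4, 4 of 6 members measured this way, against 30.1% of all such genes. It lay below 1 for Dclre1c and Xrcc5, and the share of all such genes below 1 was not computed. Lig4 had only 6 such reads in the Klf2 library and 12 in the BFP library.

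**Figure D2:**
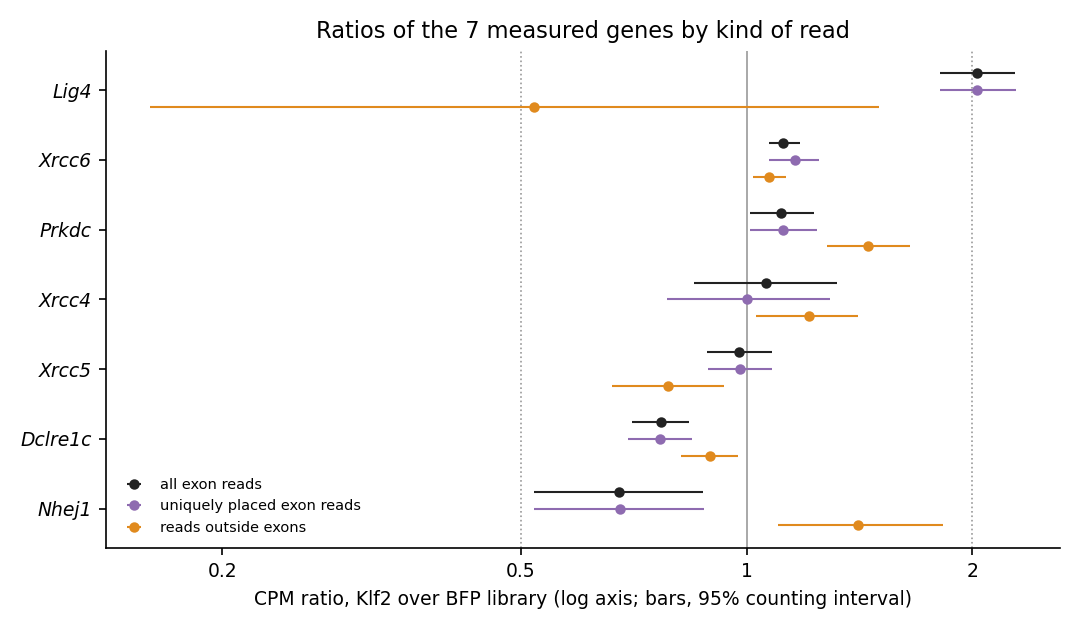
CPM ratio of the Klf2 over the BFP library (horizontal log axis, with 95% counting intervals) for the 7 measured genes on all exon reads, uniquely placed exon reads and reads outside exons. Exon ratios run from 0.676 for Nhej1 to 2.03 for Lig4, and for Nhej1 the ratio outside exons, 1.41, lies on the other side of 1.

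The order of the levels changed between the libraries in the place of Lig4. In RPKM, exon reads per kilobase of exon and per 1000000 gene reads, the order in the Klf2 library was Xrcc6 (19.3), Xrcc5 (8.33), Lig4 (5.54), Nhej1 (2.61), Dclre1c (2.59), Prkdc (1.70) and Xrcc4 (1.10). In the BFP library it was Xrcc6 (18.3), Xrcc5 (9.06), Nhej1 (4.11), Dclre1c (3.59), Lig4 (2.90), Prkdc (1.63) and Xrcc4 (1.11). Counting intervals of Nhej1 and Dclre1c overlapped in both libraries, and those of all other neighbours among these 7 did not. The median RPKM of measured genes was 7.63 in the Klf2 library and 8.33 in the BFP library, so that Xrcc6 and Xrcc5 were the only members above it. Dntt (0.116 in Klf2, 0.0132 in BFP), Rag2 (0.0322 in Klf2, 0.0575 in BFP) and Rag1 (0.00417 in Klf2, 0.00426 in BFP) were lowest in both libraries, with overlapping intervals between neighbours among these 3.

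Apart from Lig4, 3 more members have a measured gene on the other strand that starts within 1000 bases of a start of their own, found from the annotation after the Lig4 values were seen. Mcm4, a subunit of the replicative helicase, starts 466 bases from Prkdc on the other strand and was at 406 CPM in the Klf2 library and 214 CPM in the BFP library, a ratio of 1.89 (1.84 to 1.95). The Prkdc ratio was 0.589 of it (0.530 to 0.654). Desi1, which starts 144 bases from an Xrcc6 start, had a ratio of 0.896 (0.818 to 0.981), and the Xrcc6 ratio was 1.25 times that (1.13 to 1.39). The Desi1 row lies within the Xrcc6 row, so their counts may share reads, which this interval does not take in. Tmem167, which starts 41 bases from an Xrcc4 start, had a ratio of 1.21 (1.14 to 1.28), and the Xrcc4 ratio was 0.876 of it (0.697 to 1.10), an interval that holds 1. For the other 3 pairs the ratio of ratios excluded 1, with counting error alone considered. The share of all gene pairs for which this holds was not computed. Among single measured genes, intervals lay above 1 for 37.1% and below 1 for 37.3%, so the count of 3 is not read as particular to these pairs.

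**Figure D3:**
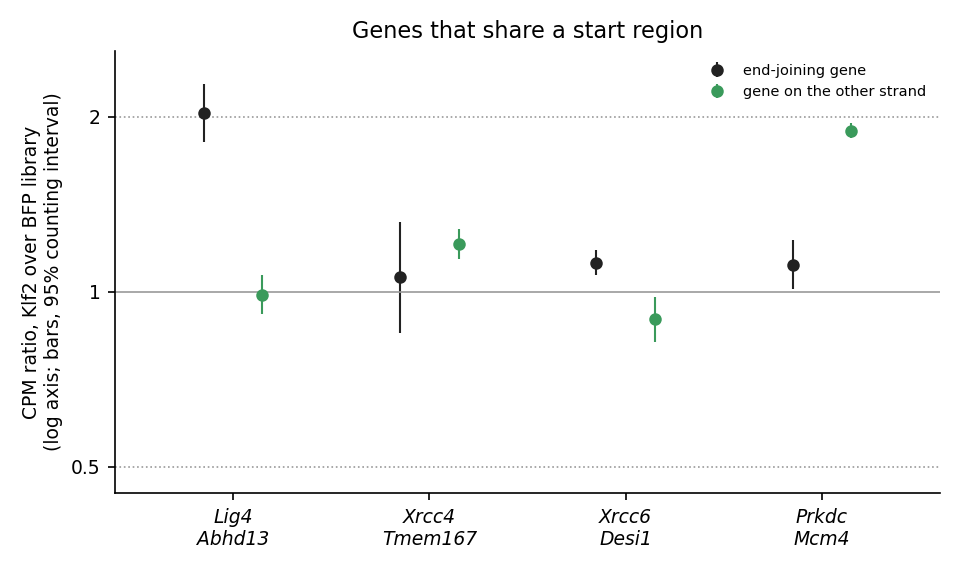
CPM ratio of the Klf2 over the BFP library (vertical log axis, with 95% counting intervals) for 4 end-joining genes (black) and the gene on the other strand that shares their start region (green). Lig4 is at 2.03 beside Abhd13 at 0.989, and Prkdc at 1.11 beside Mcm4 at 1.89. The rows of Xrcc6 and Desi1 overlap, as do those of Xrcc4 and Tmem167, so their counts may share reads.

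RNA of genes whose proteins bind RAG or control its turnover was higher in the Klf2 library where its interval excluded 1. This held for 9 of the 10 genes, where 37.1% of all measured genes had an interval above 1. All 10 genes of this list were measured, 5 were at least 1.5-fold higher with an interval above 1 and none 1.5-fold lower, where 10.2% of all measured genes were higher and 13.9% lower by that rule. The count of 5 was 4 with scaling by total exon reads and 4 on uniquely placed reads. The list median log2 difference was 0.54. Among all measured genes, the fifth with the highest levels had a median log2 ratio of 0.17. Kpna2, an importin that binds RAG1, was at 405 CPM in the Klf2 library and 193 CPM in the BFP library (2.10-fold), with 8.87% of its reads uniquely placed in Klf2 and 9.70% in BFP. Ccna2, the cyclin A gene, whose kinase partner marks RAG2 for breakdown in S phase, was at 525 CPM in Klf2 and 267 CPM in BFP (1.96-fold). Skp2, the ubiquitin ligase subunit that carries this breakdown out, was at 109 CPM in Klf2 and 62.7 CPM in BFP (1.74-fold). The DNA-bending cofactors Hmgb2 (770 CPM in Klf2 and 402 CPM in BFP, 1.91-fold) and Hmgb1 (584 CPM in Klf2 and 386 CPM in BFP, 1.51-fold) had at most 51.8% of reads uniquely placed in either library, and on those reads their ratios were 1.76 and 1.35.

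Of 9 measured accessory factors of end joining none was 1.5-fold higher and 1 was 1.5-fold lower, with a median of -0.28. The shares over all measured genes, 10.2% higher and 13.9% lower, are close to these. That gene was Polm, a gap-filling polymerase of junctions, at 11.1 CPM in the Klf2 library and 21.0 CPM in the BFP library, a ratio of 0.527 (0.460 to 0.602). Its relative Poll was at 23.1 CPM in Klf2 and 22.5 CPM in BFP, named after its values were seen. Of 6 genes of alternative end joining, which repairs breaks without Ku and ligase IV, 3 were 1.5-fold higher and none lower. The shares over all genes are those just given, and the list median was 0.44. With scaling by total exon reads the count of 3 was 2. Polq, the polymerase that anneals short homologies, was at 35.2 CPM in the Klf2 library and 19.5 CPM in the BFP library, a log2(CPM + 1) difference of 0.82. Parp1, a sensor of breaks, was at 450 CPM in Klf2 and 255 CPM in BFP (1.77-fold) and the DNA ligase gene Lig1 at 236 CPM in Klf2 and 151 CPM in BFP (1.56-fold). Ccna2, a cell cycle gene, was higher beside these genes as given above, and its part in the result was not tested.

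Among 11 genes of break sensing and end protection none passed the 1.5-fold rule in either direction. Their median was 0.23, and 9 intervals lay above 1, where 37.1% of all measured genes did. The interval of 1 gene lay below 1, H2afx, a histone variant marked at breaks and named after its values were seen, with a ratio of 0.859 (0.811 to 0.911). Mdc1, a scaffold on damaged chromatin, was at 256 CPM in the Klf2 library and 205 CPM in the BFP library (1.25-fold). Rad50, of the complex that detects ends, was at 88.8 CPM in Klf2 and 67.8 CPM in BFP (1.31-fold, 1.24 to 1.39).

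Transcription factors with known roles at the Rag and Dntt genes or in early B cells were present in both libraries. All 17 were measured, with a summed level of 4316 CPM in the Klf2 library and 4328 CPM in the BFP library and a median log2 difference of -0.01. By the 1.5-fold rule 3 were higher and 1 lower, where 10.2% of all measured genes were higher and 13.9% lower. The list as a whole was thus not set apart from the background. Gfi1b, a repressor known in mouse B-cell precursors to act on the Rag genes, was the furthest, at 55.1 CPM in the Klf2 library and 15.9 CPM in the BFP library (3.46-fold, 3.13 to 3.84). The zinc-finger genes Bcl11a (244 CPM in Klf2, 127 CPM in BFP) and Ikzf3 (122 CPM in Klf2, 65.3 CPM in BFP) were 1.92-fold and 1.87-fold higher, with 44.3% of Bcl11a reads in the Klf2 library uniquely placed. Irf4, a factor of light chain rearrangement, was at 154 CPM in the Klf2 library and 307 CPM in the BFP library, a ratio of 0.501 (0.483 to 0.519). Known activators of the Rag genes, named after their values were seen, had RNA in both libraries: Foxo1 was at 273 CPM in Klf2 and 325 CPM in BFP and Tcf3, which encodes the E2A proteins, at 645 CPM in Klf2 and 650 CPM in BFP, while Rag1 and Rag2 had the reads given above.

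**Figure D4:**
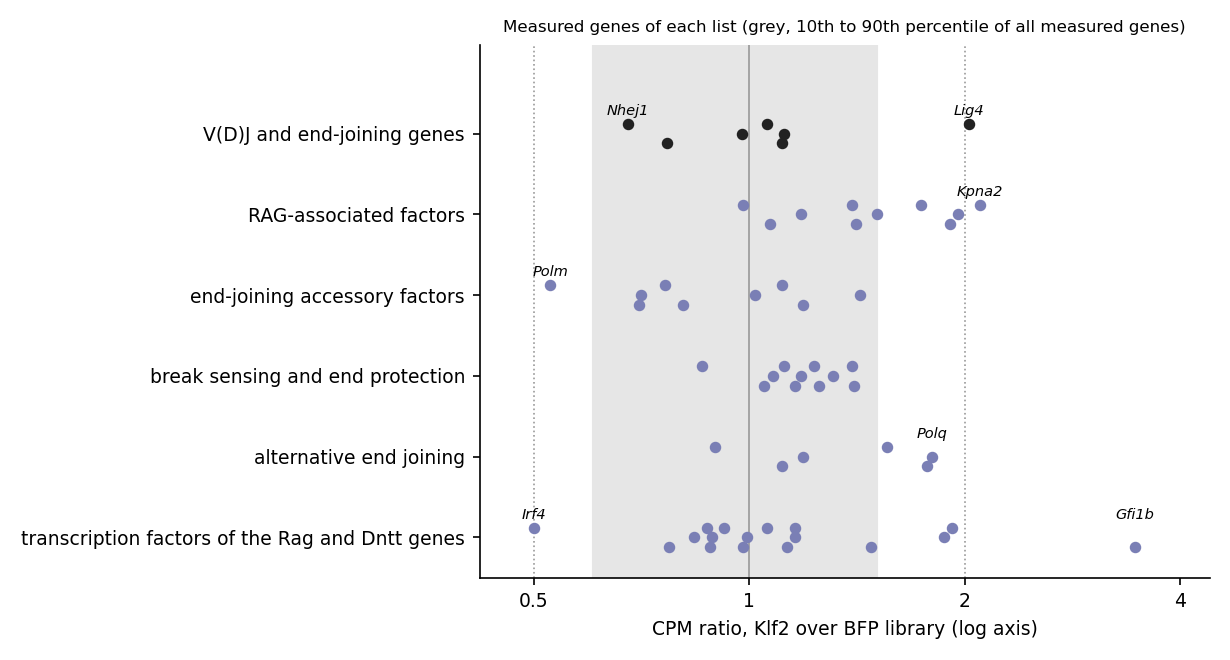
CPM ratio of the Klf2 over the BFP library (horizontal log axis) for each measured gene of the V(D)J and end-joining genes and of 5 related lists (1 point per gene), with a grey band from the 10th to the 90th percentile of all measured genes, 0.604 to 1.51. Lig4 (2.03), Kpna2 (2.10) and Gfi1b (3.46) lie above 2, and Polm (0.527) and Irf4 (0.501) close to 0.5.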

How the data were processed

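Poly(A) RNA of BMiFLT3 (15-3) cells was sequenced on an Illumina HiSeq system, per the labels' protocols. Per the submitters' processing notes, CASAVA 1.8.2 was used and the build was mm10. Aligner, counter, annotation and use of strand: not given in the sources used here. Per the file headers, the authors deposited counts per gene and lane of all exon reads, uniquely placed exon reads, gene reads and junction reads. All exon reads, which include reads with several placements, are the main values.

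Lanes of a construct were compared by chi-square over genes (1.27 per degree of freedom in Klf2 and 1.29 in BFP on all reads, 1.03 in both on uniquely placed reads, under a limit of 1.5), summed, and counted as 1 sample. TMM scaling of the summed counts (edgeR 4.0.16, R 4.3.3) gave factors of 0.969 for Klf2 and 1.03 for BFP. Ratios carry Clopper-Pearson 95% intervals conditional on the summed reads (SciPy 1.17.1), and ratios of ratios carry exact conditional intervals of the odds ratio. The 2-fold rule was tried on simulated counts with counting error only. How often the intervals hold the true ratio was not tested. Reads outside exons are gene reads minus exon reads. RPKM was computed from the deposited counts and exon lengths. No molecular identifiers are mentioned in the labels.

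The members, gene lists and rules were chosen with earlier results of these data known. The text names all members, list genes at least 1.5-fold apart (at most 5 a list, or the 2 with the most reads where there was none), and the nearest measured rows beside Rag1, Rag2, Dntt and Lig4. Paxx and Hbb-b1 did not match a row. Strands and starts are from GENCODE M21 and promoters from RefSeq, both on the mm10 assembly. DESeq2 1.42.0 size factors, total exon reads, other kinds of read, other floors, pseudocounts and fold limits, and leaving out each lane were tried as alternatives.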

Additional observations from a re-analysis of the deposited data

How the results depend on the processing

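The Lig4 ratio was 1.91 with scaling by total exon reads and 1.94 to 2.09 with a lane left out, and it passed the 2-fold limit under the other settings that gave a value. The count of members past the rule was accordingly 0 with total exon reads, 0 to 1 with a lane left out, where 0 came from leaving out lane 2 of the Klf2 library, and 2 with no floor, where Dntt joined Lig4 on its 9 reads against 1. The Prkdc interval held 1 without any one of the Klf2 lanes, so intervals above 1 numbered 2 to 3 and intervals below 1 numbered 2 with a lane left out, and the median log2 difference ran from 0.01 to 0.13. With all gene reads the ratio was 0.999 for Nhej1, 1.26 for Prkdc, 0.843 for Dclre1c and 1.17 for Xrcc4 (1.03 to 1.33, an interval that then lay above 1), and with junction reads it was 0.817 for Xrcc4 on 40 reads in Klf2 and 50 in BFP. Lig4 had too few junction reads (2 in Klf2 and 2 in BFP) for a value. Among the related lists, checked under settings added after the data were seen, the accessory factors had 3 genes 1.5-fold lower with total exon reads in place of 1. The cause was not tested. When measured genes were split by level into 5 groups of equal size, the medians of the log2 ratio lay between -0.20 and 0.17. Scaled to the median of its own group, Lig4 was at 2.22 and Nhej1 at 0.779 (0.599 to 1.01), whose interval below 1 was lost, as it was with all gene reads and junction reads. No paired analysis was possible because lanes of 1 library per construct give no test.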

Other observations

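The nearest measured rows beside Nhej1, named after their values were seen, lay on different sides of 1. Wnt10a, a secreted WNT ligand, was at 187 CPM in the Klf2 library and 101 CPM in the BFP library (1.86-fold, 1.78 to 1.94), and lay 162960 bases before Nhej1. Cnppd1, the next measured row after it, was at 76.0 CPM in the Klf2 library and 151 CPM in the BFP library, a ratio of 0.504 (0.479 to 0.530). The nearest measured row after Dclre1c, Hspa14, a heat shock protein gene, was at 132 CPM in the Klf2 library and 82.7 CPM in the BFP library (1.59-fold, 1.52 to 1.68).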
